A study of Mus musculus with 6 samples.

Results

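Genes of the semaphorin, plexin, ephrin, Eph receptor, SLIT and ROBO families were followed in bulk RNA sequencing of primary astrocytes grown from mouse cortex. They were taken from the deposited count table by gene symbol alone, which gave 58 of its 54532 genes: 20 semaphorins, 9 plexins, 14 Eph receptors, 8 ephrins and 7 SLIT or ROBO genes. Epoxide hydrolase, Slitrk and antisense genes that share the opening letters of these symbols were not taken. Knockout cultures (n = 3) came from GFAP-Cre::NEOf/f pups, in which Cre recombinase under the promoter of the astrocyte filament gene Gfap cuts out floxed Neo1 sequence. Control cultures (n = 3) came from littermates. The labels call the littermates only control, and the library names point to the floxed allele without Cre. Age, sex, strain and any pooling of pups are not in the labels, which list no treatment, and a Gfap promoter can also drive Cre in neural progenitors. Replicates are labelled biological but no pup or litter is named, so each p-value rests only on how these libraries differ among themselves, which may be technical in part.

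Guidance cues of these families steer growing axons, migrating cells and sprouting vessels by attraction or repulsion. Semaphorins signal through plexins, and most secreted class 3 semaphorins need a neuropilin as co-receptor. Ephrins are tethered to the membrane, the A class by a lipid anchor and the B class by a transmembrane segment, and they bind Eph receptor tyrosine kinases on a neighbouring cell, with signals passing into both cells. SLITs are secreted proteins bound by ROBO receptors. Neogenin, the product of Neo1, is itself a guidance receptor, for netrins and repulsive guidance molecules. In the brain astrocytes both make such cues and carry their receptors, and astrocytic ephrins and Eph receptors act at synapses.

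Total counts ran from 60819277 to 106081115 per library, and 18530 genes passed the filter on low counts. Levels are normalised counts (CPM, each library scaled by its TMM-adjusted size), given for replicates 1, 2 and 3 in turn or as a mean ± SD (n = 3 in each group). Neo1 was at 101, 106 and 105 CPM in knockout cultures, against 189, 189 and 198 CPM in control cultures. Every knockout library was below every control library, a 1.85-fold fall (log2 fold change −0.89, SE 0.05, edgeR adjusted p = 5.8e-11), and the count pools all exons of the gene. Astrocyte markers were present in every library. Gfap, whose promoter drives the Cre, fell and averaged 431 ± 3.85 CPM in knockout and 946 ± 20.8 CPM in control cultures, and Aqp4, the water channel of astrocyte endfeet, rose and averaged 879 ± 31.2 CPM in knockout and 605 ± 35.5 CPM in control cultures. Knockout replicate 2 lay far from its group on the second principal component, which took up 19.6% of the variance. Xist was at or below 0.356 CPM in every library. The 4 Y-linked genes tested were expressed in every library of both groups, and all rose. Ddx3y averaged 114 ± 2.47 CPM in knockout and 67.0 ± 2.22 CPM in control cultures. Uty averaged 24.7 ± 2.67 CPM in knockout and 16.1 ± 1.68 CPM in control cultures. The cause of these rises was not tested. Markers of other cells moved with genotype, by summed CPM over lists of 10 or 12 genes. Microglia and macrophage markers summed to between 47.2 and 51.4 CPM in knockout cultures and between 80.4 and 87.9 CPM in control cultures (9 of 12 tested lower, 1 higher). Endothelial markers summed to between 157 and 163 CPM in knockout cultures and between 96.1 and 101 CPM in control cultures (4 of 8 tested higher), although the endothelial genes Cldn5 and Erg stayed at or below 0.203 CPM everywhere. Of 11 fibroblast and meningeal markers tested 8 were higher and 2 lower, with sums from 7919 to 9275 CPM in knockout cultures and from 9219 to 9991 CPM in control cultures. The binding protein gene Igfbp2 carried much of that sum, and without it the direction turned, with 4758 to 5372 CPM in knockout cultures and 3094 to 3283 CPM in control cultures. Lower sums in knockout cultures were also found for astrocyte markers (2747 to 2875 CPM in knockout and 3034 to 3099 CPM in control cultures, 7 of 12 lower and 2 higher), pericyte and smooth muscle markers (2947 to 3000 CPM in knockout and 4116 to 4328 CPM in control cultures, 4 of 9 lower and 2 higher) and ependymal and choroid plexus markers (49.8 to 58.8 CPM in knockout and 99.3 to 102 CPM in control cultures, 6 of 9 lower and 2 higher). Neuronal markers summed to between 365 and 381 CPM in knockout and between 429 and 439 CPM in control cultures (3 of 10 lower, 1 higher), and oligodendrocyte lineage markers overlapped, from 293 to 338 CPM in knockout and from 335 to 344 CPM in control cultures (4 of 9 lower, 2 higher). With the most abundant gene of each list left out, an alternative chosen after seeing the data, neuronal sums overlapped (144 to 149 CPM in knockout and 137 to 154 CPM in control cultures) and oligodendrocyte lineage sums did not (117 to 144 CPM in knockout and 182 to 195 CPM in control cultures), and the other lists kept their direction apart from the fibroblast list. What part such cells play in the values below was not tested, and in bulk RNA fewer cells of a type and less RNA per cell cannot be told apart.

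The guidance genes moved in both directions, with more of them lower than higher in the knockout cultures. Of 58 members, 55 passed the filter; the other 3, Epha8, Epha10 and Robo4, stayed at or below 0.225 CPM in every library. Of the 55 tested, 15 rose and 22 fell, where rose and fell mean an adjusted p under 0.05 in edgeR's quasi-likelihood test, adjusted by Benjamini-Hochberg over all 18530 genes. This made 67.3% of the tested members called, where 38.3% of all tested genes were called (19.6% higher and 18.7% lower). Well-expressed genes are called more often: among genes averaging at least 10 CPM, 53.6% were called (27.3% higher and 26.3% lower), and of the 36 members at that level 12 were higher and 18 lower (83.3% called). The median log2 fold change of knockout over control was −0.16 over the tested members and −0.00175 over all tested genes. Knockout libraries lay wholly above the control libraries for 18 members and wholly below them for 23, an arrangement found in 24.7% and 24.5% of all tested genes (49.3% in either direction). Of the 55 tested members 5 rose (9.09%) and 9 fell (16.4%) by at least 1.5-fold, where 7.47% and 5.42% of all tested genes did so. Without knockout replicate 2 the counts were 13 higher and 21 lower, and without control replicate 2 they were 10 and 20. Under total-count scaling 12 members were higher and 24 lower, beside 2921 higher and 4499 lower among all genes.

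**Figure D1:**
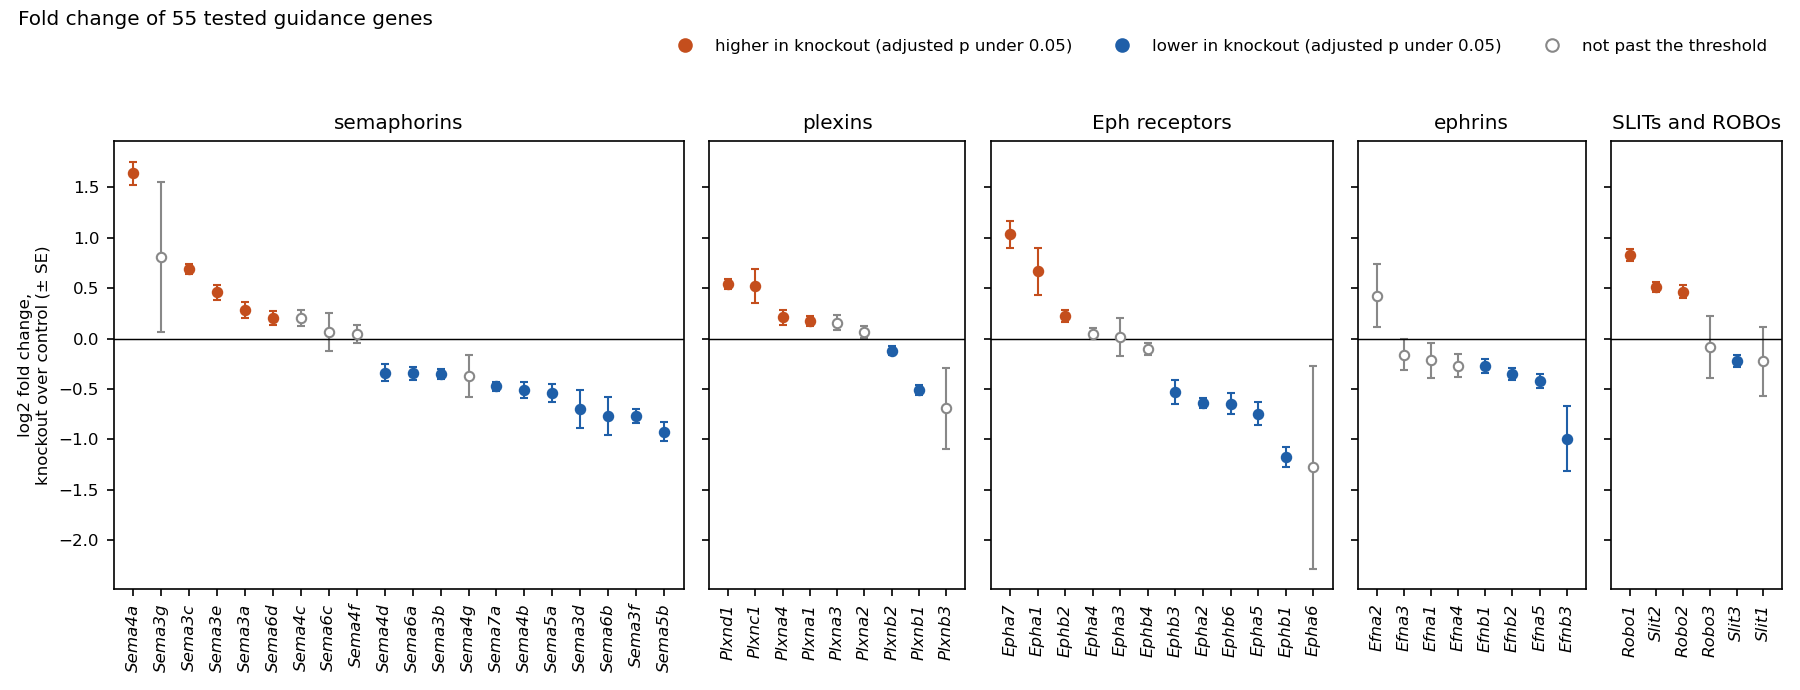
Log2 fold change of knockout over control (vertical axis, points, with the standard error as bars) for the 55 tested members, ordered within each family; filled points passed an adjusted p of 0.05 and open points did not. Sema4a at 1.64 is the highest point and no ephrin lies above 0 with a filled point.

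Fold changes are given on the log2 scale as knockout over control with a standard error (SE). The 14 members past the threshold and changed at least 1.5-fold are given library by library. For all 37 called members the knockout and control libraries did not overlap, an arrangement found in 49.3% of all tested genes. A call itself makes it likely, so it is a description and not further evidence. Just inside that fold lay Epha2 at −0.64 and Epha1 at 0.67, and just outside it Plxnd1 at 0.55 and Sema5a at −0.54.

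**Figure D2:**
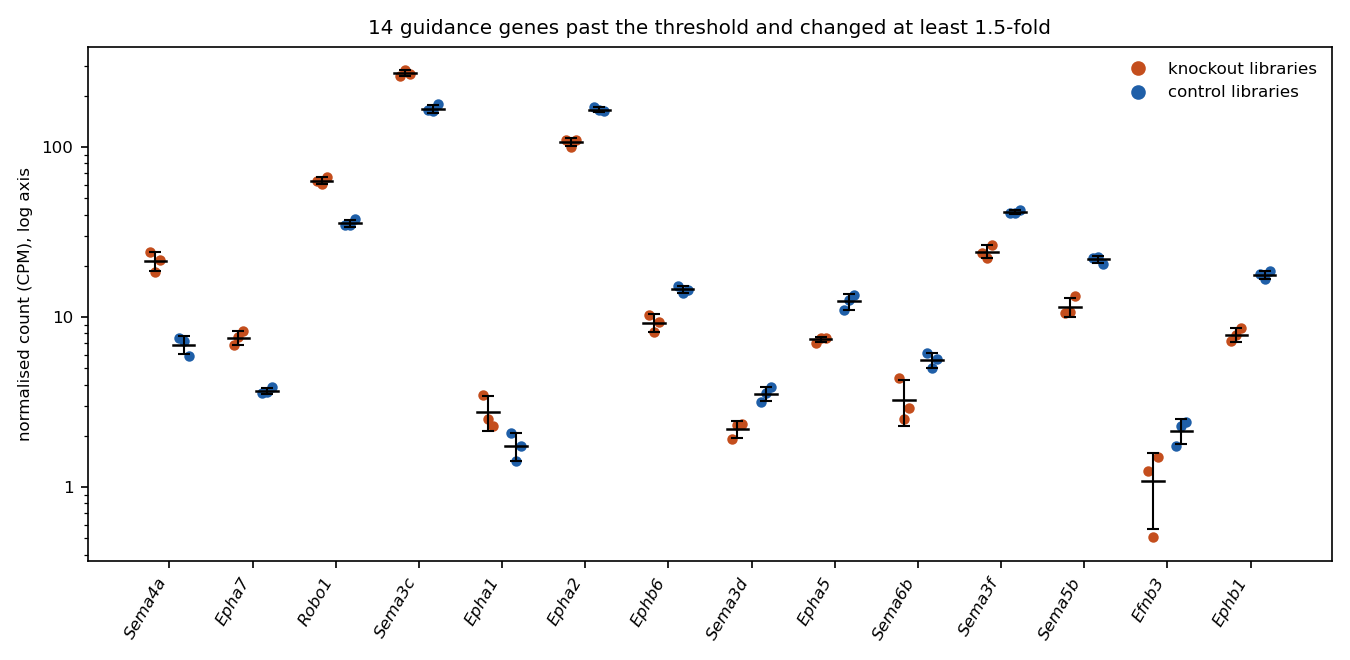
Normalised count in CPM (vertical log axis) of the 14 members that passed the test and changed at least 1.5-fold, with knockout libraries to the left of control libraries for each gene, points for libraries and bars for the mean ± SD (n = 3). The 3 knockout libraries lie on one side of the 3 control libraries for each of the 14 genes.

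Semaphorins were split: 5 of 20 rose, 10 fell and 5 did not pass the test, with a median log2 fold change of −0.34. Thus 25% rose and 50% fell, where 19.6% and 18.7% of all tested genes did so. Among genes averaging at least 10 CPM the shares were 27.3% and 26.3%. The median was −0.24 without knockout replicate 2, and 3 rose without control replicate 1. Secreted class 3 genes were among both, 3 higher and 3 lower. The summed level of the family was 726 ± 10.1 CPM in knockout cultures and 698 ± 21.3 CPM in control cultures (SD, n = 3), and the libraries of the groups overlapped.

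Sema4a had the largest rise of all members. This gene (ENSMUSG00000028064, chromosome 3, 88435959 to 88461182, minus strand) encodes a transmembrane semaphorin known from immune cells and the retina. Its level was 24.0, 18.5 and 21.5 CPM in knockout cultures, against 7.49, 7.21 and 5.91 CPM in control cultures. Every knockout library was above every control library, a 3.12-fold difference (log2 fold change 1.64, SE 0.12, edgeR adjusted p = 4.0e-09). The estimate stayed between 1.53 and 1.74 when any library was left out. Sema4a is also known in microglia and macrophages, of whose markers 9 of 12 tested were lower and 1 higher in the knockout cultures. What part such cells play in the Sema4a level was not tested.

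Among secreted class 3 semaphorins, Sema3c, Sema3e and Sema3a rose while Sema3f, Sema3d and Sema3b fell. Sema3c (ENSMUSG00000028780, chromosome 5, 17574281 to 17730268, plus strand), a cue for neural crest and cortical neurons, was at 260.2, 282 and 270.3 CPM in knockout cultures, against 164, 162 and 178 CPM in control cultures. It was the most abundant semaphorin in CPM in both groups and rose 1.61-fold, each knockout library lying above each control library (log2 fold change 0.69, SE 0.05, edgeR adjusted p = 4.4e-09). Sema3e, the ligand that binds plexin D1 without a neuropilin, averaged 38.4 ± 2.77 CPM in knockout and 27.9 ± 2.57 CPM in control cultures (log2 fold change 0.46, SE 0.08, edgeR adjusted p = 1.1e-04), with no overlap between the groups. Sema3a, the collapsing factor for sensory and cortical growth cones, averaged 27.8 ± 2.48 CPM in knockout and 22.7 ± 1.28 CPM in control cultures (log2 fold change 0.29, SE 0.08, edgeR adjusted p = 0.008). That call was lost without knockout replicate 3 (log2 fold change 0.21, adjusted p = 0.068 by edgeR) and without control replicate 1 (0.24, adjusted p = 0.059 by edgeR).

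Sema3f (ENSMUSG00000034684, chromosome 9, 107681500 to 107710475, minus strand), a repellent that acts through neuropilin 2, moved the other way. It was at 23.9, 22.3 and 26.5 CPM in knockout cultures, against 40.6, 40.6 and 42.5 CPM in control cultures. The fall was 1.70-fold, and all knockout libraries were below all control libraries (log2 fold change −0.77, SE 0.07, edgeR adjusted p = 1.3e-07). Sema3d (ENSMUSG00000040254, chromosome 5, 12383385 to 12588948, plus strand), a class 3 gene of low level, was at 1.91, 2.31 and 2.35 CPM in knockout cultures, against 3.17, 3.58 and 3.86 CPM in control cultures. It fell 1.62-fold (log2 fold change −0.70, SE 0.19, edgeR adjusted p = 0.0065). Sema3b, which lies 72.3 kb from Sema3f on chromosome 9, fell with it, averaging 63.1 ± 1.32 CPM in knockout and 80.4 ± 0.257 CPM in control cultures (log2 fold change −0.35, SE 0.05, edgeR adjusted p = 2.3e-05). Sema3g did not pass the test and was at or below 0.192 CPM in every library.

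The class 5 semaphorins, which carry thrombospondin repeats, both fell. Sema5b (ENSMUSG00000052133, chromosome 16, 35541145 to 35664732, plus strand) was at 10.6, 10.7 and 13.2 CPM in knockout cultures, against 22.3, 22.6 and 20.5 CPM in control cultures. This 1.90-fold fall was the largest among semaphorins (log2 fold change −0.92, SE 0.10, edgeR adjusted p = 6.8e-07). Sema5a averaged 18.2 ± 1.02 CPM in knockout and 26.4 ± 3.55 CPM in control cultures (log2 fold change −0.54, SE 0.09, edgeR adjusted p = 1.4e-04).

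Transmembrane class 4 and class 6 genes mostly fell or did not pass. Sema6b (ENSMUSG00000001227, chromosome 17, 56123085 to 56140343, minus strand), a ligand of class A plexins, was at 4.38, 2.50 and 2.91 CPM in knockout cultures, against 6.11, 4.99 and 5.65 CPM in control cultures. It fell 1.70-fold (log2 fold change −0.77, SE 0.19, edgeR adjusted p = 0.0037), and knockout replicate 1 lay closest to the control libraries. Sema4b, Sema4d and Sema6a fell by 0.51, 0.34 and 0.35 on the log2 scale. Sema4d is the ligand of plexin B1, and it averaged 14.9 ± 0.482 CPM in knockout and 18.8 ± 1.07 CPM in control cultures (log2 fold change −0.34, SE 0.08, edgeR adjusted p = 0.0035). Sema6d rose by little, averaging 47.5 ± 2.35 CPM in knockout and 41.2 ± 3.17 CPM in control cultures (log2 fold change 0.20, SE 0.07, edgeR adjusted p = 0.022). The Sema6d call was lost without knockout replicate 2 (log2 fold change 0.16, adjusted p = 0.060 by edgeR), control replicate 1 (0.17, adjusted p = 0.12 by edgeR) or control replicate 2 (0.17, adjusted p = 0.12 by edgeR) and under total-count scaling (0.14, adjusted p = 0.11 by edgeR). Sema4c, Sema4f, Sema4g and Sema6c did not pass, with log2 fold changes from −0.37 to 0.20. Sema4c was at the edge (log2 fold change 0.20, SE 0.08, edgeR adjusted p = 0.0552) and passed in DESeq2 (adjusted p = 0.04799), limma-voom (adjusted p = 0.04807) and edgeR with a filter of 1 CPM in 3 libraries (adjusted p = 0.040). Sema7a, the lipid-anchored semaphorin that signals through integrin β1 and plexin C1, fell. It averaged 81.7 ± 0.0805 CPM in knockout and 113 ± 3.99 CPM in control cultures (log2 fold change −0.47, SE 0.05, edgeR adjusted p = 4.3e-07).

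Of the 9 plexins, the semaphorin receptors, 4 rose, 2 fell and 3 did not pass, with a median log2 fold change of 0.16, and none that passed reached 1.5-fold. That made 44.4% higher and 22.2% lower, beside 19.6% and 18.7% of all tested genes. Leaving out libraries reduced the plexin counts to as few as 1 higher (without knockout replicate 3 or control replicate 2) and 1 lower (without knockout replicate 1, knockout replicate 2, control replicate 1 or control replicate 2). Without control replicate 1 and under total-count scaling 2 were higher. The members that kept their call without each library in turn were Plxnd1 and Plxnb1.

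Plxnd1 (ENSMUSG00000030123, chromosome 6, 115954811 to 115995005, minus strand), the receptor for SEMA3E that also takes class 3 semaphorins through neuropilins and is known for vessel patterning, was at 438, 396 and 452 CPM in knockout cultures, against 294, 284 and 302 CPM in control cultures. It rose 1.46-fold (log2 fold change 0.55, SE 0.05, edgeR adjusted p = 1.0e-07), and the groups did not overlap. The endothelial marker genes Cdh5 and Flt1 also rose, Cdh5 averaging 53.4 ± 1.93 CPM in knockout and 26.8 ± 0.439 CPM in control cultures and Flt1 68.1 ± 1.37 CPM in knockout and 43.5 ± 2.87 CPM in control cultures, while Cldn5 and Erg were near 0 as given above. Plxnb1 (ENSMUSG00000053646, chromosome 9, 109095389 to 109119917, plus strand), the receptor for SEMA4D, was at 99.7, 95.5 and 99.2 CPM in knockout cultures, against 140.3, 135 and 145 CPM in control cultures. It fell 1.43-fold (log2 fold change −0.51, SE 0.05, edgeR adjusted p = 1.5e-07), beside the fall of the Sema4d ligand gene.

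Sema3e and Plxnd1 are a ligand and receptor that both rose, so the 250 bases before their RefSeq starts (build GRCm38.p6, gene strand, 5′ to 3′) are shown. Capitals mark GCGTG on either strand, which with ACGTG makes up the core of the hypoxia response element bound by HIF, the factors named in the study's title. Sema3e is at chr5:14025026-14025275 (plus strand) and Plxnd1 at chr6:115995006-115995255 (minus strand).
Sema3e: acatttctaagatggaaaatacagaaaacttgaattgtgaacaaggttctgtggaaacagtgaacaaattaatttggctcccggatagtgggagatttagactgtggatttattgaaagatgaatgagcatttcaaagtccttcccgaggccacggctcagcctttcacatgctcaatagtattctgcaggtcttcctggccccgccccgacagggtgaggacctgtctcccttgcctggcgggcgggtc
Plxnd1: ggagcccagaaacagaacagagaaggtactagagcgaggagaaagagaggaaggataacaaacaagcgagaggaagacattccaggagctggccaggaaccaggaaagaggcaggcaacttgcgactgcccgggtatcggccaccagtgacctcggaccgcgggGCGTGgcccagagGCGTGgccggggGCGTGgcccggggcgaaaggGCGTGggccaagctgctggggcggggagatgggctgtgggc
The Plxnd1 window held GCGTG at 4 places and ACGTG at none, and the Sema3e window held neither. Among 32851 RefSeq windows of this length over all genes, 28.2% held GCGTG and 16.6% held ACGTG on either strand. Windows were taken for 51 members and not for the rest, and for their 67 windows the shares were 34.3% and 17.9%. For 54 of the 67 windows the first 20 transcribed bases were found in a GENCODE transcript, so some starts were not matched. Of the 20 windows of members that rose 5 held GCGTG and 3 held ACGTG, and of the 23 windows of members that fell 10 and 6 did. A match is a run of letters and not a bound site.

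The remaining plexin calls were small. Plxna1, a co-receptor partner of neuropilins, averaged 309.9 ± 11.9 CPM in knockout and 275 ± 19.8 CPM in control cultures (log2 fold change 0.17, SE 0.05, edgeR adjusted p = 0.013), and 10.7% of its exon bases lie under the antisense gene Gm26811, at 0.348 ± 0.158 CPM in knockout and 0.223 ± 0.105 CPM in control cultures. Plxna4, a receptor for SEMA3A and SEMA6A, averaged 27.8 ± 0.739 CPM in knockout and 24.1 ± 1.82 CPM in control cultures (log2 fold change 0.21, SE 0.07, edgeR adjusted p = 0.031). Plxnc1, a receptor for SEMA7A, averaged 5.59 ± 1.07 CPM in knockout and 3.87 ± 0.483 CPM in control cultures (log2 fold change 0.52, SE 0.17, edgeR adjusted p = 0.02). Plxnb2, the plexin with the most reads, averaged 566 ± 22.9 CPM in knockout and 614 ± 10.1 CPM in control cultures (log2 fold change −0.12, SE 0.04, edgeR adjusted p = 0.031). Each of these 4 calls was close to the threshold and was lost when any of several libraries was left out. Plxna1 did not pass without knockout replicate 3 (log2 fold change 0.14, adjusted p = 0.072 by edgeR), control replicate 1 (0.15, adjusted p = 0.092 by edgeR) or control replicate 2 (0.13, adjusted p = 0.12 by edgeR). Plxna4 did not pass without knockout replicate 1 (0.19, adjusted p = 0.11 by edgeR), knockout replicate 3 (0.22, adjusted p = 0.060 by edgeR), control replicate 1 (0.22, adjusted p = 0.067 by edgeR) or control replicate 2 (0.14, adjusted p = 0.19 by edgeR). Plxnc1 did not pass without knockout replicate 2 (0.46, adjusted p = 0.0505 by edgeR), knockout replicate 3 (0.42, adjusted p = 0.10 by edgeR) or control replicate 2 (0.42, adjusted p = 0.11 by edgeR). Plxnb2 did not pass without knockout replicate 1 (−0.13, adjusted p = 0.064 by edgeR), knockout replicate 2 (−0.087, adjusted p = 0.055 by edgeR), control replicate 1 (−0.13, adjusted p = 0.070 by edgeR) or control replicate 2 (−0.13, adjusted p = 0.061 by edgeR). Under total-count scaling Plxna1 (0.11, adjusted p = 0.11 by edgeR) and Plxna4 (0.14, adjusted p = 0.13 by edgeR) did not pass either. Plxna2, Plxna3 and Plxnb3 did not pass the test in edgeR, with log2 fold changes of 0.07, 0.16 and −0.69; Plxnb3 stayed at or below 1.32 CPM.

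Both neuropilins, the co-receptors of class 3 semaphorins, rose, with larger log2 fold changes than any plexin. Nrp1 was at 189, 207 and 191 CPM in knockout cultures, against 114, 112 and 126 CPM in control cultures. Nrp2 was at 191, 183 and 184 CPM in knockout cultures, against 97.0, 92.6 and 102 CPM in control cultures. The groups did not overlap for either gene, and the log2 fold changes were 0.74 (SE 0.05) for Nrp1 and 0.94 (SE 0.05) for Nrp2, and edgeR gave adjusted p = 6.1e-09 and 6.1e-11. They belong to a list of 10 semaphorin co-receptors and other semaphorin receptors, of which 5 of 9 tested rose and 2 fell (median 0.11). Among all tested genes 19.6% rose and 18.7% fell, and among those averaging at least 10 CPM 27.3% and 26.3%. Chl1, an adhesion molecule that associates with neuropilin 1, rose and averaged 57.4 ± 3.87 CPM in knockout and 28.9 ± 2.28 CPM in control cultures. Itga1, an integrin subunit that pairs with integrin β1, fell and averaged 58.6 ± 3.70 CPM in knockout and 84.6 ± 4.28 CPM in control cultures. In a list of plexin signalling genes, which also holds Plxdc1 and Plxdc2, 4 of 20 rose and 11 fell (median −0.15), beside the same shares over all genes. Dpysl5, a cytoskeletal mediator of the CRMP family, fell and averaged 7.49 ± 0.529 CPM in knockout and 16.9 ± 1.86 CPM in control cultures. Rnd1, a small GTPase that binds plexins, fell as well and averaged 524 ± 13.6 CPM in knockout and 699 ± 20.6 CPM in control cultures. Gipc1, a PDZ adaptor that binds neuropilin 1, fell and averaged 80.0 ± 4.75 CPM in knockout and 99.3 ± 1.84 CPM in control cultures, whereas Mical2, an actin-oxidising enzyme, rose and averaged 179 ± 3.98 CPM in knockout and 119.8 ± 6.82 CPM in control cultures.

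**Figure D3:**
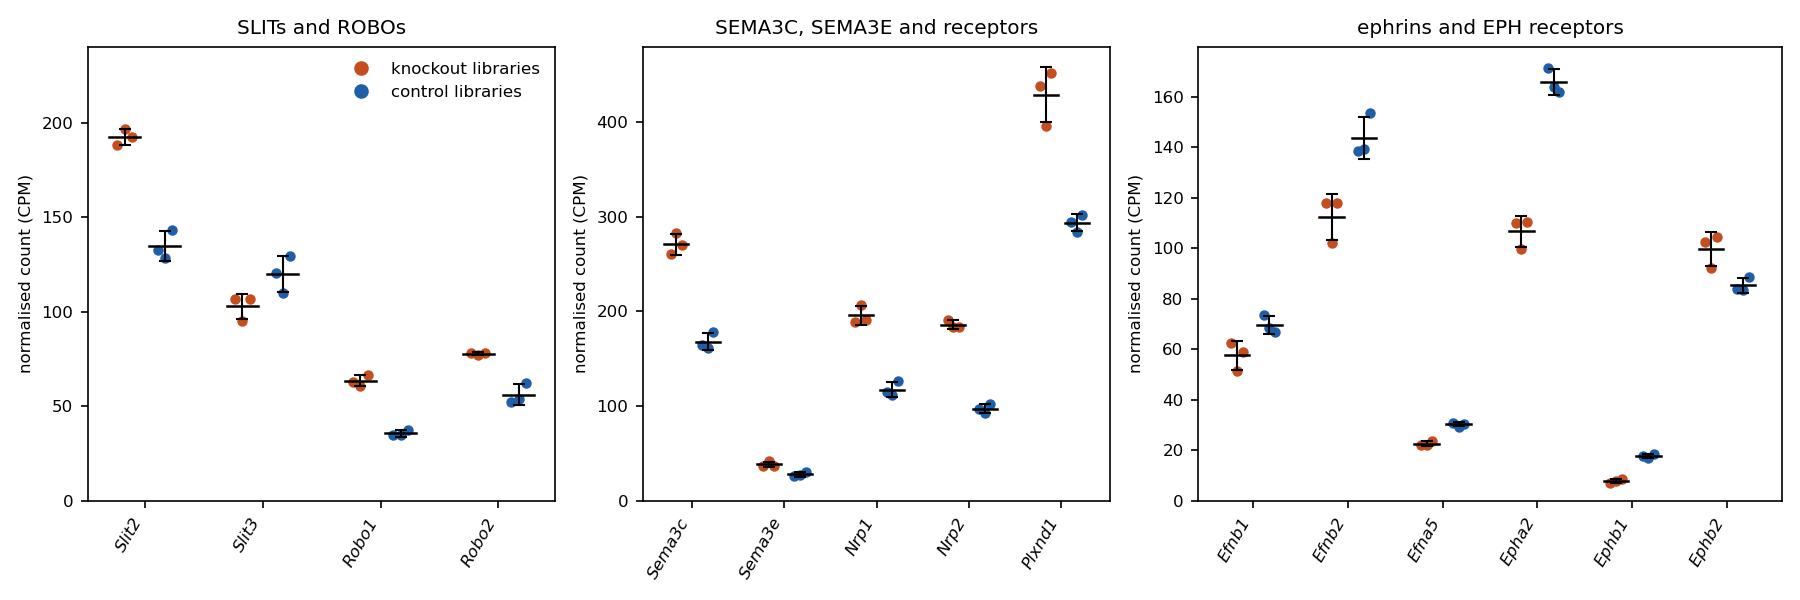
Normalised counts in CPM (vertical axes from 0) of selected ligands and receptors, with knockout libraries to the left of control libraries, points for libraries and bars for the mean ± SD (n = 3). Slit2, Robo1, Robo2, Sema3c, Sema3e, Nrp1, Nrp2, Plxnd1 and Ephb2 are higher in the knockout libraries and Slit3, Efnb1, Efnb2, Efna5, Epha2 and Ephb1 lower, with no overlap.

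Ephrins fell or did not pass: none of 8 rose and 4 fell, with a median log2 fold change of −0.27. Over all tested genes 19.6% rose and 18.7% fell, and among those averaging at least 10 CPM 27.3% and 26.3%. With only 8 genes, the lack of rises is a description. In limma-voom and DESeq2 likewise 0 ephrins were higher. At an unadjusted p under 0.05 in edgeR 0 ephrins were higher and 5 lower, and the share of all genes at that cut was not counted. The summed ephrin level was 222, 193 and 219 CPM in knockout cultures, against 265, 260 and 272 CPM in control cultures. No knockout library reached the lowest control library. Efnb2, a transmembrane ephrin known for marking arteries and for its place on astrocytes, was at 118, 102 and 118 CPM in knockout cultures, against 139, 139 and 153 CPM in control cultures. It fell by 0.35 on the log2 scale (log2 fold change −0.35, SE 0.06, adjusted p = 1.5e-04 by edgeR). Efnb1, X-linked and also transmembrane, was at 62.5, 51.5 and 58.8 CPM in knockout cultures, against 73.8, 68.3 and 67.0 CPM in control cultures and fell by 0.27 (log2 fold change −0.27, SE 0.07, adjusted p = 0.0036 by edgeR). Efna5, a lipid-anchored ephrin of topographic maps, averaged 22.7 ± 0.836 CPM in knockout and 30.3 ± 0.821 CPM in control cultures (log2 fold change −0.42, SE 0.07, edgeR adjusted p = 8.4e-05).

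Efnb3 (ENSMUSG00000003934, chromosome 11, 69554092 to 69560205, minus strand), the midline ephrin that stops corticospinal axons, had the largest fall among ephrins at a low level. It was at 1.24, 0.506 and 1.49 CPM in knockout cultures, against 1.75, 2.28 and 2.41 CPM in control cultures, a 1.99-fold fall (log2 fold change −0.99, SE 0.32, edgeR adjusted p = 0.022). Knockout replicate 2 was the lowest library, and the log2 fold change was −0.66 without it. The call was lost without control replicate 2 (−0.96, adjusted p = 0.074 by edgeR) or control replicate 3 (−0.90, adjusted p = 0.088 by edgeR). Efna1, Efna3 and Efna4 lie in a row on chromosome 3 with gaps of 32.8 and 10.4 kb, and none passed the test, with log2 fold changes of −0.22, −0.16 and −0.27. Efna4 was below the control libraries in every knockout library and passed under total-count scaling (−0.34, adjusted p = 0.026 by edgeR) and without control replicate 3 (−0.34, adjusted p = 0.049 by edgeR). Overlapping antisense genes cover 14.1% of the exon bases of Efna3 and 10.5% of those of Efna4. Efna2, near 1 CPM, did not pass (log2 fold change 0.43, SE 0.31, edgeR adjusted p = 0.31).

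Eph receptors moved in both directions within both the A and the B class. Of 14, 12 were tested, 3 rose, 5 fell and 4 did not pass, with a median log2 fold change of −0.32. The shares were 25% higher and 41.7% lower, beside 19.6% and 18.7% of all tested genes. The median depended on genes of very low level, at −0.59 with no filter and −0.095 with a filter of 1 CPM in 3 libraries. Summed over the family, levels were 395, 370 and 399 CPM in knockout cultures, against 460, 438 and 460 CPM in control cultures, without overlap. Epha2 accounted for most of that difference, averaging 107 CPM in knockout and 166 CPM in control cultures beside mean family sums of 388 and 452 CPM. Summed without Epha2, the libraries of the groups overlapped.

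Ephb1 (ENSMUSG00000032537, chromosome 9, 101922128 to 102354693, minus strand), a receptor of B-class ephrins known from the optic chiasm, had the largest called fall of all members. It was at 7.18, 7.83 and 8.60 CPM in knockout cultures, against 17.8, 16.8 and 18.6 CPM in control cultures. Knockout libraries held less than the lowest control library by a wide margin, 2.25-fold on average (log2 fold change −1.17, SE 0.10, edgeR adjusted p = 4.5e-08). The 250 bases before its RefSeq start are shown as those of the member that fell most, at chr9:102354694-102354943 (minus strand, capitals as above).
Ephb1: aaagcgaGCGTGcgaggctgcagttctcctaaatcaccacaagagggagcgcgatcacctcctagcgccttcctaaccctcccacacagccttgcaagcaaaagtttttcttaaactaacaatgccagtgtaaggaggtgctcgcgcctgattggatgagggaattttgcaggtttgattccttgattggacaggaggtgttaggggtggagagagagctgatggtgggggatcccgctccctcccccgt
This window held GCGTG at 1 place and ACGTG at none.

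Epha2 (ENSMUSG00000006445, chromosome 4, 141301240 to 141329384, plus strand), a receptor of A-class ephrins with high levels in cultured and proliferating cells, had the highest mean CPM among Eph genes. It was at 110.1, 99.7 and 110.3 CPM in knockout cultures, against 172, 164 and 162 CPM in control cultures. It fell 1.55-fold (log2 fold change −0.64, SE 0.05, edgeR adjusted p = 2.0e-08). Epha5 (ENSMUSG00000029245, chromosome 5, 84054761 to 84417382, minus strand), a neuronal receptor of the same class, was at 7.05, 7.57 and 7.52 CPM in knockout cultures, against 10.9, 12.6 and 13.5 CPM in control cultures. It fell 1.68-fold (log2 fold change −0.74, SE 0.11, edgeR adjusted p = 3.6e-05). Ephb6 (ENSMUSG00000029869, chromosome 6, 41605482 to 41620509, plus strand), whose kinase domain is inactive, was at 10.3, 8.17 and 9.32 CPM in knockout cultures, against 15.3, 13.9 and 14.5 CPM in control cultures. That was a fall of 1.57-fold (log2 fold change −0.65, SE 0.11, edgeR adjusted p = 9.2e-05). Ephb3 averaged 8.35 ± 1.25 CPM in knockout and 12.1 ± 0.0365 CPM in control cultures and fell too (log2 fold change −0.53, SE 0.12, edgeR adjusted p = 0.0014). In all 5 falling Eph receptor genes the groups did not overlap.

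Epha7 and Epha1 rose, both at low levels, and Ephb2 rose by little. Epha7 (ENSMUSG00000028289, chromosome 4, 28813131 to 28967499, plus strand), a receptor with truncated forms known in the developing cortex, was at 6.80, 7.59 and 8.22 CPM in knockout cultures, against 3.57, 3.60 and 3.85 CPM in control cultures. It rose 2.05-fold (log2 fold change 1.03, SE 0.14, edgeR adjusted p = 9.2e-06), the largest rise among Eph receptors. Epha1 (ENSMUSG00000029859, chromosome 6, 42358487 to 42373268, minus strand), an epithelial receptor, was at 3.50, 2.51 and 2.28 CPM in knockout cultures, against 2.07, 1.42 and 1.75 CPM in control cultures (log2 fold change 0.67, SE 0.23, edgeR adjusted p = 0.03). The lowest knockout library was close to the highest control library. Its call was lost without knockout replicate 1 (log2 fold change 0.46, adjusted p = 0.20 by edgeR), control replicate 2 (0.54, adjusted p = 0.13 by edgeR) or control replicate 3 (0.66, adjusted p = 0.078 by edgeR). Exons of the abundant gene Zyx overlap 6.01% of the Epha1 exon bases on the other strand, and 455 bases of the Epha1 transcript match 2010010A06Rik at 95.8% identity. Zyx averaged 279 ± 15.7 CPM in knockout and 324 ± 7.70 CPM in control cultures, and without a stated strand setting reads of the shared bases cannot be told apart. Ephb2, a synaptic receptor of B-class ephrins, averaged 99.7 ± 6.67 CPM in knockout and 85.4 ± 2.97 CPM in control cultures (log2 fold change 0.22, SE 0.06, edgeR adjusted p = 0.0039).

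Other well-expressed Eph genes did not pass. Epha4, a receptor for both ephrin classes found on astrocytes and neurons, averaged 84.5 ± 1.98 CPM in knockout and 81.7 ± 6.12 CPM in control cultures (log2 fold change 0.05, SE 0.06, edgeR adjusted p = 0.56). Ephb4, the venous partner of ephrin-B2, averaged 49.7 ± 3.10 CPM in knockout and 53.3 ± 1.59 CPM in control cultures (log2 fold change −0.10, SE 0.06, edgeR adjusted p = 0.21), and it passed as lower under total-count scaling (log2 fold change −0.17, adjusted p = 0.038 by edgeR). Epha3 overlapped between the groups (log2 fold change 0.02, SE 0.19, edgeR adjusted p = 0.96), as did Epha6, which stayed at or below 0.241 CPM. Of 23 other genes of Eph and ephrin signalling, 8 rose and 6 fell (median −0.027), where 19.6% and 18.7% of all tested genes did so. Among genes averaging at least 10 CPM the shares were 27.3% and 26.3%. Pdzrn3 and Tiam1 rose, Pdzrn3, a ubiquitin ligase with PDZ domains, averaging 59.3 ± 1.87 CPM in knockout and 34.6 ± 1.86 CPM in control cultures and Tiam1, a Rac exchange factor, 45.4 ± 3.96 CPM in knockout and 28.4 ± 1.2 CPM in control cultures. Anks1b rose as well, averaging 17.8 ± 0.356 CPM in knockout and 9.31 ± 0.318 CPM in control cultures. Ngef, which encodes ephexin-1 and acts below EphA receptors, fell and averaged 17.3 ± 0.685 CPM in knockout and 26.9 ± 1.32 CPM in control cultures.

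Slit2 and the receptor genes Robo1 and Robo2 rose. Of 7 SLIT and ROBO genes 6 were tested, 3 rose, 1 fell (Slit3) and 2 did not pass. This was 50% higher and 16.7% lower, where 19.6% and 18.7% of all tested genes rose and fell. The median log2 fold change of 0.19 over so few genes was −0.054 with no filter, 0.060 without knockout replicate 2, 0.081 without control replicate 2 and −0.16 without control replicate 3; the calls did not change in any of these. Summed levels were 438, 432 and 446 CPM in knockout cultures, against 343, 330 and 375 CPM in control cultures, without overlap.

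Robo1 (ENSMUSG00000022883, chromosome 16, 72308306 to 73046095, plus strand), a receptor that carries SLIT repulsion in axons and migrating neurons, was at 63.0, 60.7 and 66.5 CPM in knockout cultures, against 34.6, 34.6 and 37.7 CPM in control cultures. It rose 1.78-fold, and the lowest knockout library was well above the highest control library (log2 fold change 0.83, SE 0.06, edgeR adjusted p = 6.1e-09). Robo2, the companion receptor, was at 78.3, 76.9 and 78.2 CPM in knockout cultures, against 52.5, 53.7 and 62.4 CPM in control cultures. Its rise was 1.38-fold (log2 fold change 0.47, SE 0.06, edgeR adjusted p = 1.2e-05). Slit2 (ENSMUSG00000031558, chromosome 5, 47983138 to 48307733, plus strand), the SLIT gene with the most reads, was at 188, 197 and 192 CPM in knockout cultures, against 132, 128 and 143 CPM in control cultures, again without overlap. It rose 1.43-fold (log2 fold change 0.51, SE 0.05, edgeR adjusted p = 2.1e-07). Slit3 moved the other way and was at 107, 95.1 and 107 CPM in knockout cultures, against 121, 110.1 and 129 CPM in control cultures. Its fall was small, though no library crossed to the other group's range (log2 fold change −0.22, SE 0.06, adjusted p = 0.0083 by edgeR). Slit1 (log2 fold change −0.22, SE 0.34, edgeR adjusted p = 0.66) and Robo3 (log2 fold change −0.08, SE 0.31, edgeR adjusted p = 0.87) did not pass and stayed at or below 1.79 CPM.

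The 250 bases before the RefSeq starts of Slit2, at chr5:47982905-47983154 (plus strand), and of Robo1, at chr16:72662899-72663148 (plus strand), are shown because both this ligand and this receptor rose. The Robo1 start in RefSeq lies inside the longer GENCODE gene. Capitals mark GCGTG as above.
Slit2: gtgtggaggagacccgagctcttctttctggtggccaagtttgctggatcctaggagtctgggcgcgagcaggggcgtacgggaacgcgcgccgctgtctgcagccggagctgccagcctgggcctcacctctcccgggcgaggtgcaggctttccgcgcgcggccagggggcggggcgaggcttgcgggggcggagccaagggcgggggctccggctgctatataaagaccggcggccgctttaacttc
Robo1: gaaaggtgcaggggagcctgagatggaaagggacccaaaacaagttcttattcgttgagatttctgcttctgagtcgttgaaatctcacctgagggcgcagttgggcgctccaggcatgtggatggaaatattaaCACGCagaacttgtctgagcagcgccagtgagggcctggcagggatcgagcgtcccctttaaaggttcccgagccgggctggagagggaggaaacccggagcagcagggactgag
The Slit2 window held neither ACGTG nor GCGTG, held GGGCGG, the GC box, at 3 places and held TATAAA at 1 place. The Robo1 window held GCGTG at 1 place and no GC box. Over all RefSeq windows 32.7% held a GC box and 12.4% held TATAAA on either strand; among windows of the members 47 of 67 held a GC box and 2 held TATAAA.

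Of 17 other genes of SLIT and ROBO signalling 3 rose and 4 fell, with a median log2 fold change of 0.0049. That was near the share over all tested genes, of which 38.3% were called (19.6% higher and 18.7% lower). Every gene of this list averaged at least 10 CPM, however. Among all genes at that level a larger share was called, 53.6% (27.3% higher and 26.3% lower). Sdc1, a syndecan whose heparan sulphate chains help SLIT bind ROBO, rose and averaged 111 ± 3.13 CPM in knockout and 86.9 ± 1.51 CPM in control cultures, as did Usp33, a deubiquitinase that binds ROBO1, which averaged 29.2 ± 1.37 CPM in knockout and 23.4 ± 0.758 CPM in control cultures. Vasp, an actin regulator of the Ena family, fell and averaged 95.4 ± 3.69 CPM in knockout and 142 ± 5.52 CPM in control cultures. The genes Srgap1, Srgap2 and Srgap3, for the GTPase-activating proteins that bind ROBO, are named after their values were seen and did not pass, with log2 fold changes of −0.05, 0.14 and 0.01. Of 14 tested netrin, RGM and related guidance genes, 7 rose and 5 fell (median 0.068), where 19.6% and 18.7% of all tested genes did so. The falls include Neo1, the gene deleted by design. Unc5c, a netrin receptor gene, rose and averaged 52.3 ± 3.94 CPM in knockout and 28.3 ± 1.66 CPM in control cultures, and Ntn4, a netrin of basement membranes, fell and averaged 39.3 ± 1.73 CPM in knockout and 75.9 ± 0.246 CPM in control cultures.

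Levels per kilobase of exon were used to order the members. Length was the union of all annotated exons, which can be longer than the transcripts made. Among plexins the first 3 were the same in both groups: Plxnb2 led with 73.3 CPM per kilobase in knockout and 79.6 in control cultures, followed by Plxnd1 with 58.7 and 40.2 and Plxna1 with 34.2 and 30.3. Among semaphorins Sema3c led in knockout cultures, at 37.95 CPM per kilobase against 23.5 in control cultures. In control cultures Sema7a led, at 24.8 CPM per kilobase in knockout and 34.4 in control cultures. Sema4a stood at rank 10 of 20 in knockout cultures and rank 16 in control cultures, with 3.94 and 1.27 CPM per kilobase. Efnb1 and Efnb2 headed the ephrins, at 16.7 and 16.4 CPM per kilobase in knockout cultures and 20.2 and 21.0 in control cultures, and their libraries overlapped in each group. Epha2 headed the Eph receptors at 22.8 CPM per kilobase in knockout and 35.5 in control cultures, and Ephb4 and Epha4, next in order, overlapped in knockout cultures but not in control cultures. Slit3 was above Slit2 per length, with 16.95 against 7.57 CPM per kilobase in knockout cultures and 19.8 against 5.30 in control cultures. Slit2 had more reads in both groups. The exon union was 25.43 kb for Slit2 and 6.067 kb for Slit3, so their order per length rests on these annotated lengths. Which of them had more transcripts was not settled.

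**Figure D4:**
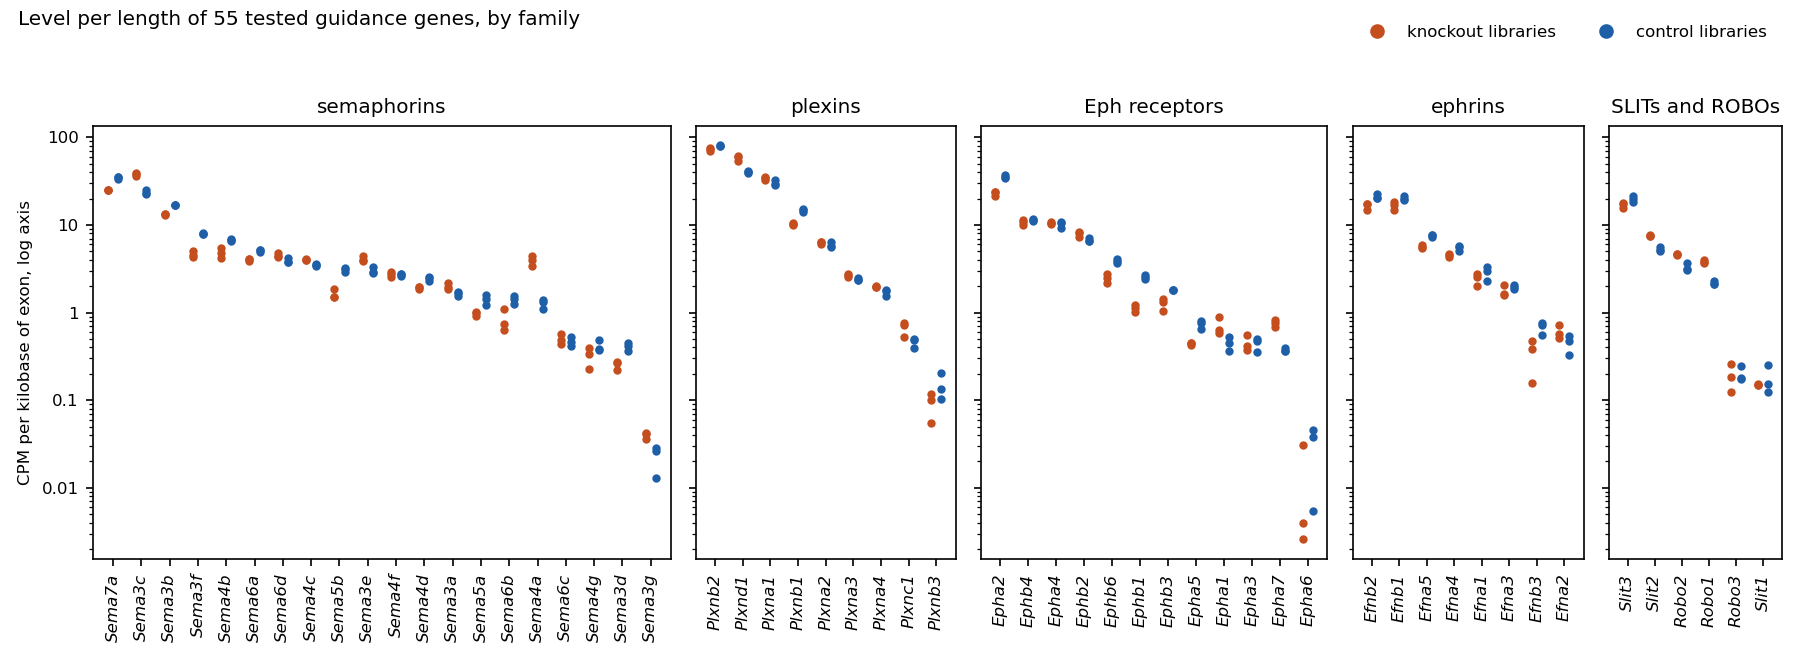
Level per length in CPM per kilobase of exon (vertical log axis) of the 55 tested members, ordered within each family by the control mean, with points for knockout libraries to the left of those for control libraries. Plxnb2, Plxnd1, Plxna1, Sema3c, Sema7a and Epha2 exceed 20 in every library, and Sema3g and Epha6 lie below 0.1 in every library.

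By gene span, members that rose spanned a median of 188 kb of genome, those that fell 34.3 kb and those that did not pass 15.5 kb. Over all tested genes the medians were 35.6, 19.4 and 14.9 kb. Across the 55 members the rank correlation of gene span with log2 fold change was 0.107, and across all tested genes 0.0725. By family it differed in sign. The values were 0.6 for plexins, 0.486 for SLITs and ROBOs, −0.0015 for semaphorins, −0.214 for ephrins and −0.427 for Eph receptors. All of these are descriptions over genes, few in each family, which are not independent replicates.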

How the data were processed

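Libraries made from polyadenylated RNA of 6 cultures, 3 knockout and 3 control, were sequenced. Per the submitters' processing notes the tools were HISAT2 2.2.1 and featureCounts 2.0.6 on GRCm38/mm10, and the deposited values are raw counts per gene with no normalisation by the authors. The strand setting, annotation release and handling of multi-mapped reads were not given in the sources used here, so antisense overlaps and near-identical copies could shift counts.

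The members and gene lists were chosen with earlier results of these data known. Counts were analysed for all genes together with edgeR 4.0.16 (TMM scaling, filterByExpr with a minimum count of 10 and a minimum total of 15, robust quasi-likelihood test, two-sided, R 4.3.3), and p-values were adjusted over all 18530 genes tested, which held 99.96% of counts. Tested on simulated data, the procedure recovered 38 of 67 changes of 1.5-fold, set in genes of any level. False calls made up 11% of its calls, a larger share than the threshold names. Far fewer genes were changed in the simulation than were called in the data, so these shares need not hold for the member calls. Members called at 1.5-fold or more are given by library, other called members by means, and in each pathway list up to 4 called genes with the smallest p could be named. Exon lengths, coordinates and overlaps came from GENCODE M21 (GRCm38), near copies from BLAST 2.17.0, and sequences from RefSeq (GRCm38.p6). Library totals of 60819277 to 106081115 counts set the precision of low genes. Alternatives were other scalings, DESeq2 1.42.0, limma-voom 3.58.1, other filters, a stricter threshold, a replicate block and leaving out each library. Replicate numbers were not taken as pairs, since the labels state no pairing.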

Additional observations from a re-analysis of the deposited data

How the results depend on the processing

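Of the 37 members called, 29 kept their direction and their call under every alternative run with the 0.05 threshold, and the other 8 lost the call when some library was left out; none reversed. Under total-count scaling 2 plexins were higher, and at a threshold of 0.01, 1 plexin was higher and 1 lower. Without 1 library at a time, between 1 and 4 plexins were higher and between 1 and 2 lower, and between 3 and 5 semaphorins were higher; over all members the counts ran from 10 to 14 higher and from 20 to 22 lower. The median of SLIT and ROBO genes was 0.47 with a filter of 1 CPM in 3 libraries and 0.30 without knockout replicate 3. Total-count scaling moved the median log2 fold change of all genes to −0.067. Same-numbered knockout and control libraries did not deviate together (correlations of 0.015, 0.019 and −0.0082 across genes, with other pairings from −0.022 to 0.013). The numbers were not taken as pairs, although these correlations cannot exclude a shared litter or preparation. With a replicate block 15 members were higher and 22 lower, and no member's call changed. Sema3g and Epha6, both at or below 0.241 CPM in every library, had standard errors of 0.74 and 1.01 on the log2 scale, and no difference of the size estimated was detectable for them at this depth. The causes of these shifts were not tested.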
